A study of Mus musculus with 13 samples.

Results

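T-box transcription factors are DNA-binding proteins that share a conserved DNA-binding domain, the T-box. 6 of them, Tbx2, Tbx3, Tbx4, Tbx5, Tbx18 and Tbx20, are described here in the embryonic mouse bladder, urethra and urogenital sinus. They were taken as the probe sets to which the array annotation gives 1 of these symbols and no other, which made 15 of the 45037 probe sets that are not controls, and 6 of the 18193 genes that the array names. The array is the Affymetrix MOE430. For each gene the probe set with the highest mean log2 intensity over the 13 arrays stood for the gene, and the others served as a check.

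3 bladder arrays, 3 urethra arrays and 4 urogenital sinus arrays came from embryos of embryonic day 14, and 3 further arrays held a newborn reference RNA. The embryos had FVB/N mothers and SMGA/EGFP transgenic fathers. In this transgene regulatory sequence of Actg2, the smooth muscle gamma-actin gene, drives a green fluorescent protein. Fluorescence guided the dissection of the bladder and of the urethra, and the sinus was the stretch between them without fluorescence, so every region sample comes from the same cross, and the activity of the Actg2 sequence was part of how the samples were taken. Samples of the regions were not pooled, the sex of the embryos is unknown, and the labels do not say whether samples of different regions came from separate embryos. The reference was RNA of whole wild-type FVB/N mice at postnatal day 1, pooled over 4 males and 4 females, so its 3 arrays repeat 1 kind of RNA and hold no spread between animals. All RNA passed through 2 rounds of amplification. Of the region arrays, 5 are labelled Theiler stage 21 and 5 are labelled Theiler stage 22.

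As background, T-box proteins bind a short DNA element and work as activators or as repressors, often beside GATA, NK2 and other partner proteins. Tbx2 and Tbx3 act mostly as repressors, restrain differentiation and cell cycle arrest, and lie downstream of BMP, hedgehog and Wnt signals in several organs, among them the mesenchyme of the mouse ureter. Tbx5 and Tbx4 are known for the forelimb and the hindlimb, where they switch on Fgf10, and both are active in lung mesenchyme. Tbx18 marks the epicardium and the mesenchyme around the mouse ureter, which needs it to form smooth muscle. Tbx20 is known chiefly from the developing heart.

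In these samples Tbx20 separated the regions most. It was bright in the bladder, intermediate in the urogenital sinus and dim in the urethra. Tbx18 had the same order, with a wider spread. Tbx2 was dimmer in the bladder than in the sinus. Tbx2, and Tbx3 on its main probe set, were brighter in all 3 regions than in the newborn reference. Tbx4 and Tbx5 were called in no comparison between regions, apart from Tbx4 when arrays were weighted.

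All intensities were scaled by the authors so that every array has the same trimmed mean, and they were analysed here as log2 values, with a floor at an intensity of 50.2 (5.65 on the log2 scale), which is the 20th percentile of the table. A probe set counted as above the filter level where its intensity exceeded 167.76, the 40th percentile, and 12 of the 15 probe sets did so on at least 3 arrays. Levels of different genes cannot be compared, since each probe set has its own brightness. Fewer cells of a type and less RNA per cell cannot be told apart in such dissected tissue. The dissection labels could be checked with Actg2, whose log2 intensity was 13.51 to 13.97 in the bladder, 12.89 to 13.65 in the urethra and 7.99 to 10.77 in the sinus. Median array intensity was 142 to 238 in the bladder, 221 to 378 in the urethra, 259 to 389 in the sinus and 278 to 455 in the reference, so every bladder array lay under every sinus array. The sinus and urethra arrays numbered 1 had the highest signal of the embryonic globin Hbb-bh1 (log2 15.04 and 14.51), and the ratio of actin 3′ to 5′ signal was highest on bladder replicate 8 (log2 4.04). The sample titles are written in 3 styles, and the 3 urethra arrays share theirs with 1 reference array and with no bladder or sinus array. The labels do not say that the styles are batches.

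**Figure D1:**
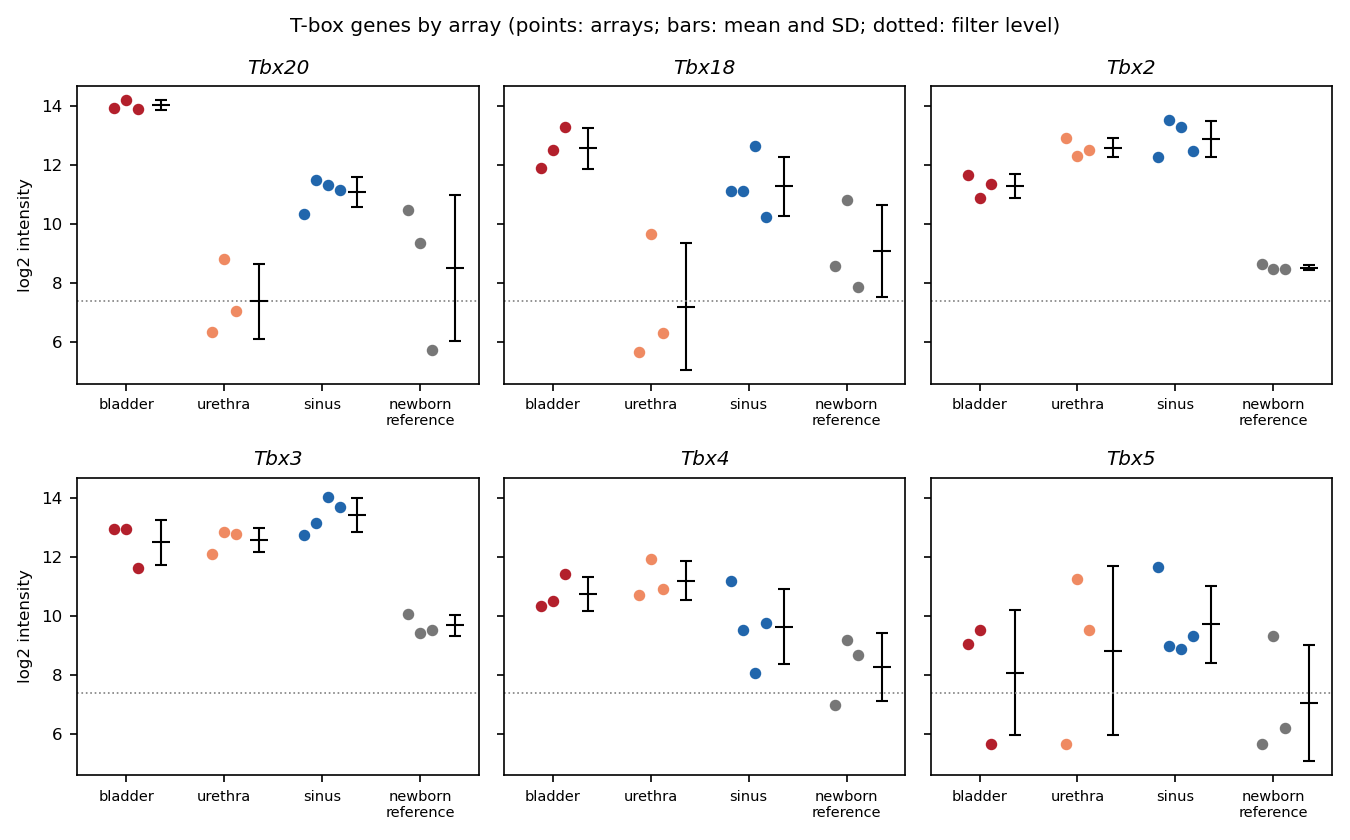
Log2 intensity (y axis) of the main probe set of the 6 T-box genes on each array, by group (x axis). Points are arrays, bars are the mean and SD, points at 5.65 lie at the floor and the dotted line is the filter level of 7.39. Tbx20 lies at 13.91 or above on the 3 bladder arrays, and Tbx2 and Tbx3 lie above the newborn reference on every region array.

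Of the 6 members, limma with Benjamini-Hochberg adjustment over 15019 genes called 2 between bladder and urogenital sinus at an adjusted p under 0.05, 1 higher (Tbx20) and 1 lower (Tbx2), where 2.54% of all genes were called, 0.812% higher and 1.73% lower. Between bladder and urethra it called 2, both higher in the bladder (Tbx20 and Tbx18), against 1.71% of all genes higher and 4.33% in either direction. Between urethra and sinus it called none of the members, against 0.0133% of all genes, and 3 members had an unadjusted p under 0.05, as did 10.4% of all genes. The median log2 difference of the members was 0.11 for bladder minus sinus (all genes -0.19), -0.25 for bladder minus urethra (all genes -0.25) and -0.86 for urethra minus sinus (all genes 0.05). The arrays of the groups did not overlap for 2 members in bladder against sinus (17.9% of all genes), for 3 in bladder against urethra (34.5%) and for 2 in urethra against sinus (8.22%).

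**Figure D2:**
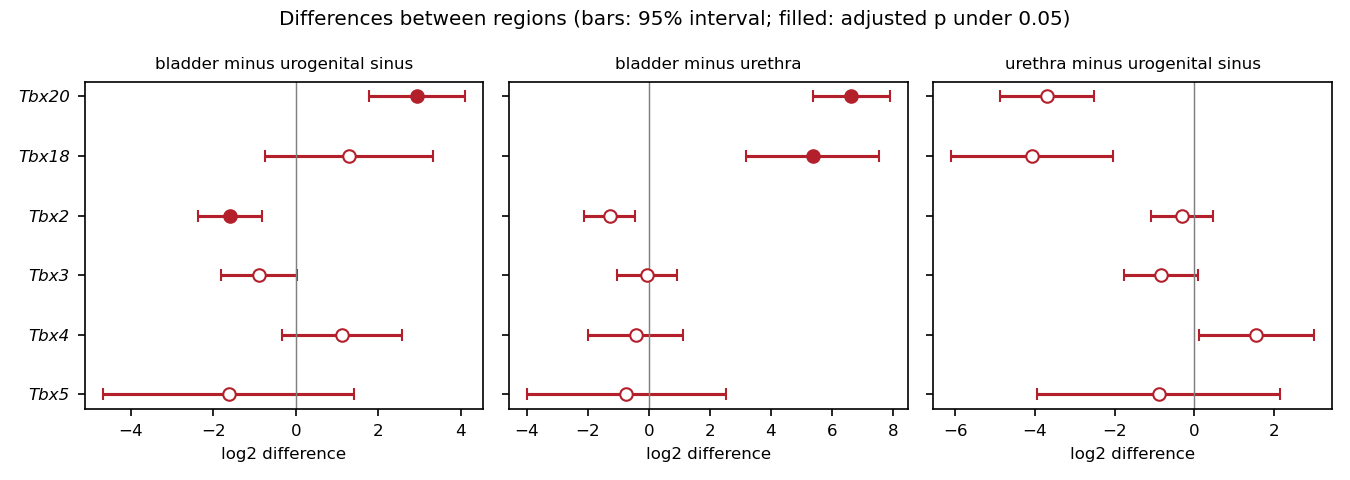
Log2 difference between regions (x axis) for each T-box gene (rows), with 95% intervals from limma as bars. Filled points have an adjusted p under 0.05, which are Tbx20 and Tbx2 in bladder minus urogenital sinus and Tbx20 and Tbx18 in bladder minus urethra.

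Tbx20 lies on chr9:24720812-24774303 (GRCm38.p6, minus strand, RefSeq gene table; the probe sets carry no coordinates in the files). Its main probe set, 1453351_at, read 15811, 19130 and 15365 on the bladder arrays. It read 80.5, 446 and 131 on the urethra arrays, with 1 of the 3 above the filter level. It read 1307, 2903.5, 2580 and 2308 on the sinus arrays, and 1418, 655.5 and 53.3 on the reference arrays. The bladder, sinus and urethra arrays thus formed 3 ranges that did not touch. The reference arrays spread from inside the sinus range to below every urethra array.

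The bladder mean was 14.03 ± 0.17 on the log2 scale (SD, n = 3), against 11.09 ± 0.51 in the sinus (SD, n = 4), a difference of 2.94 (SE 0.53, limma adjusted p = 0.0230) or 7.65-fold. By size this was the 19th highest difference of the 15019 genes. The urethra mean was 7.39 ± 1.27 (SD, n = 3), which put the bladder 6.64 above the urethra on the log2 scale (SE 0.56, adjusted p = 0.00174, limma). Since 2 of the 3 urethra arrays were under the filter level, the size of this difference depends on the floor, and with the floor at the filter level it was 6.17 (limma adjusted p = 0.000881). Urethra minus sinus was -3.70 (SE 0.53), or -3.23 with the floor at the filter level, without passing the threshold (limma adjusted p = 0.0827), and it passed without sinus replicate 1 (0.0483) or urethra replicate 2 (0.0208).

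The other Tbx20 probe sets were dimmer. 1425158_at read 8229, 11302 and 856 in the bladder, 110, 361 and 134.5 in the urethra, 1789, 867, 1705 and 856 in the sinus, and 108, 1023 and 114 in the reference. On it bladder replicate 8 lay inside the sinus range, unlike the other 2 bladder arrays, and bladder replicate 8 also had the highest actin 3′ to 5′ ratio; the part of RNA quality in this was not tested. The bladder exceeded the sinus by 1.81 (SE 0.83, limma adjusted p = 0.351 over all probe sets) and the urethra by 4.62 (SE 0.89, adjusted p = 0.0327) on the log2 scale. 1422219_a_at stayed at or under 419 on every array, with differences of 0.61 for bladder minus sinus and 1.32 for bladder minus urethra, neither of which passed the test.

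The Tbx20 call between bladder and sinus was lost with the mean over its probe sets (1.79, limma adjusted p = 0.129), without bladder replicate 2, 6 or 8 (limma adjusted p = 0.105, 0.114 and 0.068) and without sinus replicate 2 or 6 (0.0573 and 0.0597), while with any 1 array left out the difference stayed between 2.69 and 3.07. It was 3.02 within the first title style (2 bladder and 3 sinus arrays) and 2.74 within the second (1 array each). With title style as a block the difference between bladder and urethra was 2.41 (limma adjusted p = 0.382) and that between urethra and sinus turned to 0.55 (adjusted p = 0.944). The single reference array that links the urethra to the other styles, replicate 3, read 53.3 on 1453351_at, against 1418 and 655.5 on the other reference arrays, so title style and urethra can be separated only through that array.

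Tbx18 lies on chr9:87702800-87731260 (minus strand). Its main probe set, 1429974_at, read 3836, 5890 and 9986 on the bladder arrays, 44.2, 810 and 79.0 on the urethra arrays, 2243, 2214, 6460 and 1199 on the sinus arrays, and 384, 1807 and 231 on the reference arrays. Bladder and sinus overlapped through sinus replicate 6, and all 3 urethra arrays lay under every bladder and every sinus array. 2 of the 3 urethra arrays were under the filter level, and the urethra spread was the widest of the regions (7.21 ± 2.15, n = 3), against 12.57 ± 0.69 in the bladder (n = 3) and 11.28 ± 1.01 in the sinus (n = 4).

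The bladder exceeded the urethra by 5.37 on the log2 scale for Tbx18 (SE 0.97, limma adjusted p = 0.0196), and by 4.42 with the floor at the filter level (adjusted p = 0.0249), which the urethra mean did not reach. The difference between bladder and sinus was 1.29 (95% interval -0.74 to 3.32, limma adjusted p = 0.481), so the 2 regions were not separated. Urethra minus sinus was -4.08 (SE 0.91, limma adjusted p = 0.189), or -3.13 with the floor at the filter level. The second Tbx18 probe set, 1449871_at, read 508, 755 and 468 in the bladder, 12.5, 218 and 26.9 in the urethra, and 736, 492, 1027 and 184 in the sinus. Its differences were 0.14 for bladder minus sinus, 2.78 for bladder minus urethra (limma adjusted p = 0.0839) and -2.64 for urethra minus sinus.

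The Tbx18 call between bladder and urethra was lost without bladder replicate 2, 6 or 8 (limma adjusted p = 0.0593, 0.0809 and 0.0725), without urethra replicate 1 or 6 (0.0650 and 0.0570), and with title style as a block (difference 3.58, adjusted p = 0.459). Bladder minus sinus was 0.58 within the first title style and 3.06 within the second, which has 1 array of each region.

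Across the 10 region arrays the levels of Tbx18 and Tbx20 followed each other (Pearson r 0.920, Spearman rho 0.818), the highest r among the 15 pairs of members. The 10 arrays share regions, so they are not independent points, and the value is a description only. The stretches before the starts of these 2 genes are shown because the genes moved together. They are the 250 bases before the RefSeq start (GRCm38.p6, minus strand, 5′ to 3′), at chr9:24774304-24774553 for Tbx20 and chr9:87731261-87731510 for Tbx18, with matched motifs in capitals.
Tbx20: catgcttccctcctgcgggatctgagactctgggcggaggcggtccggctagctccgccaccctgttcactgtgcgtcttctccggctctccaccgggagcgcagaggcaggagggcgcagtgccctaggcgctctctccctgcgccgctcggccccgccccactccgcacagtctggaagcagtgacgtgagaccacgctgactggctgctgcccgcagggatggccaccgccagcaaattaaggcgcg
Tbx18: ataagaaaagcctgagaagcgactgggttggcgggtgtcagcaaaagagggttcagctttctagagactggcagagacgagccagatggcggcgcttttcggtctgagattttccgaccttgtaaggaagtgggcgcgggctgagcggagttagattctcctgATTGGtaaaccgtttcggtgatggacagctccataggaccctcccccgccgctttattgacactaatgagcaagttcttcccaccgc

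4 motifs were searched on both strands of these windows, none of which contains another. AGGTGT is the core of the T-box element. CCAAT is the CCAAT box. TATAAA is the TATA box. AGATAA is a form of the element that GATA factors bind. The Tbx20 window held none of them. The Tbx18 window held a CCAAT match on its reverse strand, 87 bases before the start, printed in capitals. Over 32851 such windows of the RefSeq table, 33.8% held CCAAT, 11.8% AGGTGT, 12.4% TATAAA and 9.99% AGATAA. G and C made up 68.8% of the Tbx20 window and 54.0% of the Tbx18 window, with a median of 52.4% over all windows. 3 of the 6 members had an entry in that table, Tbx4 being the other.

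**Figure D3:**
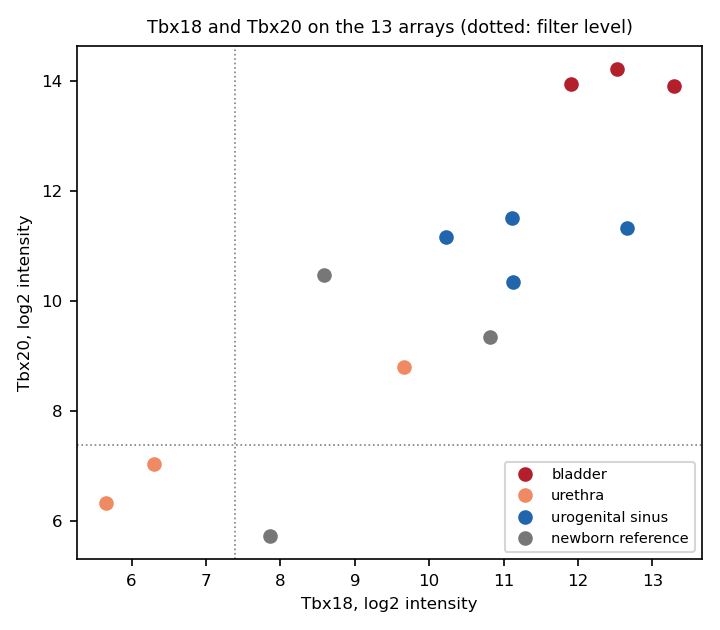
Log2 intensity of Tbx18 (x axis) and of Tbx20 (y axis) on the 13 arrays, coloured by group, with the filter level dotted. The 3 bladder arrays lie at the upper right, 2 of the 3 urethra arrays lie below both filter lines, and the sinus arrays lie between the groups on the Tbx20 axis but reach into the bladder range on the Tbx18 axis.

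Tbx2 lies on chr11:85832615-85841948, with Tbx4 as the next coding gene, and has 1 probe set, 1422545_at. It read 3239, 1876 and 2615 on the bladder arrays, 7832, 5058 and 5808 on the urethra arrays, 4952, 11806, 10061 and 5670 on the sinus arrays, and 399, 353 and 355.5 on the reference arrays. The bladder arrays lay under all urethra and sinus arrays, and the reference arrays lay under all of them. The bladder mean was 11.30 ± 0.40 on the log2 scale (SD, n = 3), against 12.89 ± 0.61 in the sinus (SD, n = 4), a difference of -1.60 (SE 0.35, limma adjusted p = 0.0457). The bladder was also below the urethra without overlap, by a log2 difference of -1.29 (SE 0.37, limma adjusted p = 0.0833), which among the alternatives run passed with array weights (adjusted p = 0.0258) or without sinus replicate 1 (0.0491). Urethra and sinus differed by -0.31 (95% interval -1.09 to 0.47, limma adjusted p = 0.794).

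The Tbx2 call between bladder and sinus stood close to the threshold. It was lost in 16 of 25 alternative settings, which included leaving out any of the bladder or urethra arrays or sinus replicate 2, 6 or 7 (limma adjusted p up to 0.195), and was kept with title style as a block (-1.58, adjusted p = 0.0353). Centring every array on its median, which moved the median difference of all genes to 0.36, left -1.01 (adjusted p = 0.311). Within the title styles the difference was -1.77 in the first and -1.12 in the second, which has 1 array of each region.

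Tbx3, the nearest relative of Tbx2, lies on chr5:119670534-119684724 with Tbx5 as the next coding gene, and has 5 probe sets. The main one, 1437479_x_at, carries a suffix for probes that can also bind other transcripts. It read 7840, 7826 and 3133 on the bladder arrays, 4351, 7298 and 6957 on the urethra arrays, 6776, 9021, 16722 and 13203 on the sinus arrays, and 1074, 686 and 726 on the reference arrays. Regions overlapped, while all 10 region arrays lay above the reference. No difference between regions passed: bladder minus sinus was -0.90 (95% interval -1.82 to 0.02, limma adjusted p = 0.299), bladder minus urethra -0.07 (-1.05 to 0.92) and urethra minus sinus -0.83 (-1.76 to 0.09).

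All 4 kept Tbx3 probe sets had lower bladder than sinus means, with differences of different size and none called. 1448029_at read 2182, 1758 and 2214 on the bladder arrays, 15564, 4573 and 3278 on the urethra arrays, 9969, 7735, 4728 and 4677 on the sinus arrays, and 954, 782 and 1592 on the reference arrays. On this probe set the bladder lay under every urethra and sinus array, by -1.66 against the sinus (SE 0.50) and -1.59 against the urethra (SE 0.53), with limma adjusted p of 0.158 and 0.145 over all probe sets. 1445757_at gave -2.39 for bladder minus sinus with overlapping arrays, and 1439567_at was above the filter level on 3 of 13 arrays. 1444594_at was above it on 1 array and was not tested.

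Tbx4, which lies beside Tbx2 on chr11:85886367-85916097, read 1281, 1453 and 2712 on the bladder arrays with 1456033_at. It read 1659, 3898 and 1934 on the urethra arrays, 2293, 733, 264 and 868 on the sinus arrays, and 124, 572 and 404 on the reference arrays. The sinus reached lower than the other regions but overlapped both through replicate 1. Urethra minus sinus was 1.56 (95% interval 0.11 to 3.01, limma adjusted p = 0.457), bladder minus sinus 1.12 (-0.33 to 2.57) and bladder minus urethra -0.44 (-1.99 to 1.11). Its second probe set, 1426321_at, was above the filter level on 2 of 13 arrays.

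Tbx5, which lies beside Tbx3 on chr5:119796514-119885220, varied within every group. 1425695_at read 525, 733 and 21.4 on the bladder arrays, 50.1, 2432 and 734 on the urethra arrays, 3200, 506, 468 and 629 on the sinus arrays, and 20.5, 628 and 73.4 on the reference arrays. 1 bladder array, 1 urethra array and 1 reference array were at the floor, and all 4 sinus arrays were above the filter level. The intervals of its differences spanned -4.68 to 1.42 for bladder minus sinus, -4.00 to 2.52 for bladder minus urethra and -3.94 to 2.16 for urethra minus sinus, so these arrays could not show a difference of that size. The second probe set, 1425694_at, was above the filter level on no array.

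**Figure D4:**
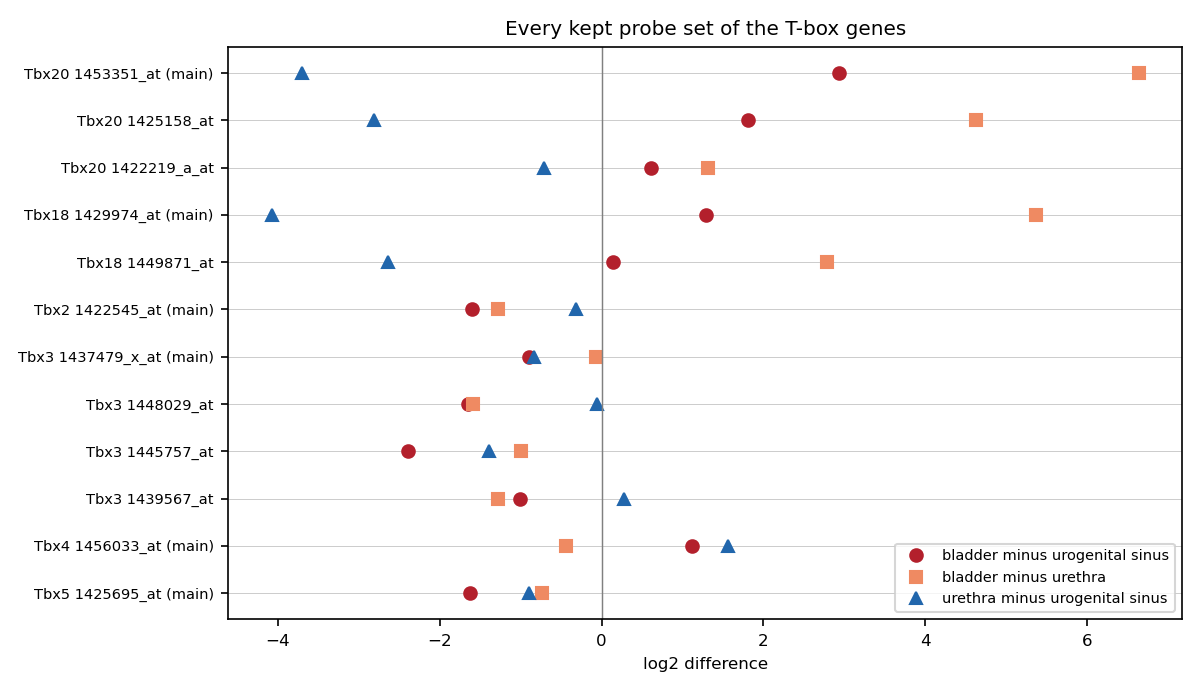
Log2 difference (x axis) on each of the 12 kept probe sets of the T-box genes (rows) for the 3 comparisons between regions. The 3 Tbx20 and the 2 Tbx18 probe sets have the bladder above the urethra and the urethra below the sinus, the 4 Tbx3 probe sets have the bladder below the sinus (-0.90 to -2.39), and Tbx18 1449871_at differs little between bladder and sinus (0.14).

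Set against the newborn whole-mouse RNA, 3 members were higher in the bladder (Tbx20, Tbx3 and Tbx2), where 5.82% of all genes were called higher and 17.0% in either direction. In the urethra 2 were higher (Tbx2 and Tbx3), against 4.36% of all genes higher and 13.2% in either direction. In the sinus the same 2 were higher, against 4.62% higher and 13.8% in either direction. These 3 comparisons share the reference, whose 3 arrays entered as 1 mean that is assumed to vary like a region sample. Region arrays lay wholly above the reference arrays for 5 members in the bladder (19.7% of all genes in that direction), 3 in the urethra (19.3%) and 2 in the sinus (13.2%).

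Tbx2 was 2.77 higher on the log2 scale in the bladder (SE 0.53, limma adjusted p = 0.00604), 4.06 in the urethra (SE 0.53, adjusted p = 0.000704) and 4.37 in the sinus (SE 0.51, adjusted p = 0.000315, 13th highest of 15019). Tbx3 was 2.83 higher in the bladder (SE 0.63, limma adjusted p = 0.0129), 2.90 in the urethra (adjusted p = 0.0133) and 3.73 in the sinus (adjusted p = 0.00253). On the second brightest Tbx3 probe set, 1448029_at, these differences were 0.95, 2.54 and 2.60 and none passed. The bladder lay below the reference on 1445757_at (-0.51) and 1439567_at (-0.42). On these probe sets the urethra was at 0.49 and 0.86 and the sinus at 1.88 and 0.59, all without a call. With the mean over the probe sets of the gene Tbx3 lost its call in the bladder (0.71, limma adjusted p = 0.504) and in the urethra (1.70, adjusted p = 0.126). Tbx20 was 5.51 higher in the bladder (SE 0.80, limma adjusted p = 0.00123) and 2.57 in the sinus (adjusted p = 0.0553), and the urethra was at -1.13 (adjusted p = 0.427), with reference arrays that spread over 53.3 to 1418. The sinus difference of Tbx20 passed in 11 alternatives, among them without sinus replicate 1, urethra replicate 1 or 2, or reference replicate 1 or 2 (limma adjusted p 0.00886 to 0.0368). Tbx18 stood at 3.49, -1.88 and 2.20 and Tbx4 at 2.49, 2.92 and 1.36 in bladder, urethra and sinus, without a call. Tbx18 in the bladder passed without urethra replicate 2 (limma adjusted p = 0.0285). Tbx4 passed without sinus replicate 1 in the bladder (0.0486), and in the urethra without sinus replicate 1 (0.0329) or 6 (0.0402) or reference replicate 2 (0.0481). Tbx5 stood at 1.02, 1.76 and 2.65.

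**Figure D5:**
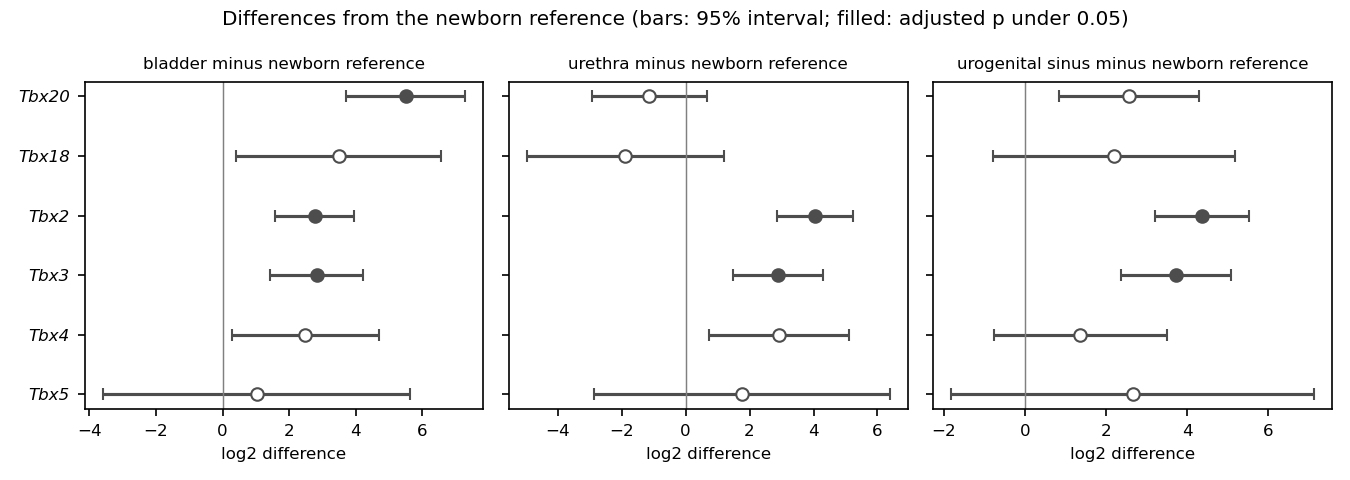
Log2 difference from the newborn reference (x axis) for each T-box gene (rows) in bladder, urethra and urogenital sinus, with 95% intervals from limma as bars. Filled points have an adjusted p under 0.05: Tbx2 and Tbx3 in all 3 regions, and Tbx20 in the bladder.

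The order of the group means differed between the members. Tbx20 and Tbx18 ran bladder, sinus, reference and urethra from the highest down, and only the step from bladder to sinus in Tbx20 had arrays that did not overlap. Tbx2 ran sinus, urethra, bladder and reference, with sinus and urethra overlapping and the other steps separate. Tbx3 had the same order with a separate step only above the reference. Tbx4 ran urethra, bladder, sinus and reference and Tbx5 sinus, urethra, bladder and reference, with overlap at every step.

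Between Theiler stages 22 and 21, with region as a covariate, none of the 6 members was called by limma and none had an unadjusted p under 0.05. That fit called 0 of the 15019 genes (0% of them), of which 3830, or 25.5%, had an unadjusted p under 0.05. It called 1421 genes with array weights, 420 with no floor and 3 without sinus replicate 7, and no member in any of these.

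Each member had genes whose profile over the 10 region arrays was most like its own, given here as descriptions over arrays that share their regions. For Tbx20 they were Dixdc1 (Pearson r 0.974), Pradc1 (0.960) and Slc35d2 (0.951), and 37 genes passed 0.9. For Tbx18 they were the prostaglandin receptor gene Ptger3 (0.961), Agtpbp1 (0.959) and the sodium channel gene Scn7a (0.959), and 15 genes passed 0.9. For Tbx2 they were Slc36a1 (0.972) and the synaptotagmin genes Syt9 (0.970) and Syt17 (0.963), with 53 genes over 0.9. Tbx3 was most like 4833422M21Rik (0.956), the kinesin gene Kif3b (0.916) and Rufy3 (0.916), with 7 genes over 0.9. Tbx4 was most like Fam83d (0.923), Fut10 (0.906) and Nexn (0.891), with 2 over 0.9. Tbx5 was most like Yju2 (0.974), 4833447I15Rik (0.974) and Zfp934 (0.973), with 76 over 0.9, and its profile was high on sinus replicate 1. Among the members, Tbx3 and Tbx4 ran in opposite directions on their main probe sets (r -0.754, rho -0.830), and Tbx2 and Tbx20 less so (r -0.569, rho -0.515). Correlations of the other Tbx3 probe sets with Tbx4 were not computed. On sinus replicate 1 Tbx4 read 2293, the highest of the sinus arrays. There the main Tbx3 probe set was at its lowest sinus value (6776) and 1448029_at at its highest (9969).

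Of 14 measured partner transcription factors of T-box proteins, 2 fell in the bladder relative to the sinus and none rose, where 1.73% of all genes fell and 0.812% rose (median 0.57, all genes -0.19). They were Isl1, a LIM homeodomain factor of the hindlimb field and of neurons (-3.57, limma adjusted p = 0.0102), and the zinc finger gene Sall4 (-3.67, adjusted p = 0.0217). Relative to the urethra 2 of the 14 rose in the bladder and 2 fell, where 4.33% of all genes were called. The Sall4 call was lost in 8 of 25 alternatives. The genes that rose were Gata6, a GATA factor, with 13.27 ± 0.38 in the bladder and 9.79 ± 0.92 in the urethra (log2, SD, n = 3 each, difference 3.48, limma adjusted p = 0.0196, lost in 7 of 25 alternatives), and Mef2c, a MADS-box factor of muscle (1.52, adjusted p = 0.0335, lost in 14 of 25 alternatives), while Isl1 (-3.69) and Hoxd13 (-1.53) fell. The bladder and urethra values of these 4 were picked after they were seen.

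Of 20 measured signalling genes upstream of T-box genes, 2 fell in the bladder relative to the sinus and none rose, against 1.73% and 0.812% of all genes (median -0.44). They were the ligand genes Wnt5a (-2.39, limma adjusted p = 0.0115) and Bmp7 (-1.80, adjusted p = 0.0357), and the Bmp7 call was lost in 12 of 25 alternatives. Of 16 measured genes that T-box factors are known to regulate, none was called in bladder against sinus (median -0.64), and the lowest p belonged to Irx1 (-1.76, limma adjusted p = 0.0580). Nppa is among the 16, although it passed the filter through the reference arrays alone. The lack of a call for Nppa between regions thus says nothing. Of 18 genes of the ureter and bladder mesenchyme 3 fell and none rose (median -0.38), among them Eya1 (-3.07, limma adjusted p = 0.0213), Six2 (-2.91, adjusted p = 0.0399) and Foxf2 (-1.38, adjusted p = 0.0486). Of 25 alternatives the Foxf2 call was lost in 19, the Six2 call in 16 and the Eya1 call in 6. No gene of these 4 lists was called between urethra and sinus.

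Since Tbx20 and Tbx18 are known from the heart and the epicardium, markers of those cells were read beside them. 1 of 9 measured cardiac muscle genes rose in the bladder relative to the sinus, the troponin gene Tnnt2 (5.90, limma adjusted p = 0.00409), and none fell (median -0.27). Of all genes 0.812% rose and 1.73% fell. Myh6, Myl7 and Nppa, which mark heart muscle, were above the filter level on no region array. They are among the 9 because they passed the filter through the reference arrays alone. The summed intensity of 10 cardiac genes was 9767 to 13313 in the bladder, 3324 to 29742 in the urethra and 1762 to 4629 in the sinus, against 109576 to 139925 in the reference. The urethra sums were 3324, 29742 and 3362, and Actc1 alone gave 27645 of the highest, on replicate 2. Actc1 also gave 54408 to 70805 of the reference sums. Of 11 genes of the epicardium and mesothelium none was called in bladder against sinus (median 0.12), the lowest p being that of Upk3b (2.47, limma adjusted p = 0.143). In bladder against urethra 1 of the 11 rose, Upk3b (4.32, limma adjusted p = 0.0250, lost in 9 of 25 alternatives), and 1 fell, Tcf21 (-1.87, adjusted p = 0.0170), 2 values named after they were seen. In that comparison 1.71% of all genes rose and 4.33% were called in either direction. The summed intensity of the 11 genes was 42573 to 64247 in the bladder, 41033 to 101645 in the urethra and 32570 to 70058 in the sinus. Krt8 alone gave 13384 to 35040, 13928 to 53277 and 13830 to 43636 of it, so the sums say little about the other genes. Between bladder and urethra 6 of the 11 had the higher mean in the bladder and 5 the lower (median 1.01, all genes -0.25). The part of mesothelium in the Tbx18 result was not tested.

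Genes of other cell types were called between bladder and sinus too, where 0.812% of all genes rose and 1.73% fell. 5 of 10 smooth muscle genes rose and none fell (median 2.30), led by Actg2 (4.41, limma adjusted p = 0.00552), Tagln (3.90) and Myh11 (4.62), and their summed intensity was 130242 to 168385 in the bladder, 91808 to 159513 in the urethra and 22068 to 91264 in the sinus. Activity of the Actg2 sequence guided the dissection, so the Actg2 difference was set by how the samples were taken. The part of smooth muscle in the T-box differences was not tested. 5 of 12 genes of the hindlimb and genital tubercle fell and none rose (median -1.64), with Sp8 (-4.33) and Sall1 (-4.65) beside Isl1. Their sums were 18048 to 23769 in the bladder, 65074 to 122439 in the urethra and 63696 to 66340 in the sinus. The bladder sums thus lay under those of both other regions, as the Tbx2 values did. In the same order of regions, Isl1 gave 1483 to 6503, 22129 to 52057 and 24991 to 31212 of them. Hoxd13 gave 13351 to 13952, 31812 to 56151 and 23277 to 28946, so the sums say little about the other genes. The urothelial, duct and neuronal sums given below also lay lower in the bladder than in both other regions, and the neuronal list holds Isl1 too. The part of these cell types in the Tbx2 result was not tested.

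Against the same background, 3 of 12 urothelial and sinus endoderm genes fell in the bladder relative to the sinus and none rose (median -0.61), with Foxa2 (-3.95), Krt5 (-3.39) and Gata3 (-2.44). 1 of 5 duct genes fell, again Gata3 (median -2.06), and 2 of 10 neuronal and glial genes fell, Elavl3 (-3.70) and Isl1 (median -2.45). In bladder, urethra and sinus the urothelial sums were 48927 to 58966, 94977 to 199415 and 75445 to 118665. The duct sums were 1850 to 3103, 7729 to 17243 and 8490 to 24420. The neuronal and glial sums were 8667 to 20578, 30417 to 54320 and 35588 to 80816. Isl1 alone gave 1483 to 6503, 22129 to 52057 and 24991 to 31212 of them. On urethra replicate 1 it gave 52057 of 54320, so the urethra sums say little about the other neuronal and glial genes. None of 5 erythroid genes was called (median -0.71), with Slc4a1 at -1.43, and none of 9 macrophage and endothelial genes (median 0.44), with Mrc1 at 1.62. Their part in the T-box differences was not tested.

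Of the 11 other T-box genes sought, 9 had probe sets on the array and 6 were tested, and none of the 6 was called between regions. Tbx15 is among the 6, although it was above the filter level on no region array. Its lack of a call between regions thus says nothing. The lowest p in bladder against sinus was that of Tbx19 (-0.94, limma adjusted p = 0.311). Tbx15, a factor of limb and skin mesenchyme, was lower in every region than in the reference. Its probe set 1418755_at read 10.4 to 13.8 in the bladder, 6.40 to 132 in the urethra, 9.33 to 30.1 in the sinus, and 1863 to 3144 in the reference. It was thus at least 14.5-fold lower in each region than in the reference, with each region taken at the filter level (at least 5.27-fold on its other probe set). It passed the filter through the reference arrays alone, so no test is given. Tbr1, Tbx21 and Tbx22 were likewise above the filter level on no region array.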

How the data were processed

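The deposited table holds linear intensity values of 13 arrays, which the authors made with GCOS per the submitters' processing notes, with the same trimmed mean on every array. The software version is not given in the sources used here. Array numbers limit the precision. Intensities were floored at the 20th percentile and taken as log2. Probe sets had to exceed the 40th percentile on at least 3 arrays (33125 kept, 64 controls left out), and 15019 genes with 1 symbol each, from the brightest probe set, were tested with limma 3.58.1 (lmFit, eBayes with an intensity trend) in R 4.3.3, with adjusted p under 0.05 as threshold. Of 45037 probe sets 34945 had 1 symbol, 932 several and 9160 none, and 34741 matched the RefSeq table by gene number. The 10 region arrays shared 1 fit; the 3 reference arrays entered as their mean; stage had region as covariate. Since the labels name no separate embryos, p-values reflect sample spread only, which may be technical. The steps were tested on simulated data. Members and lists were chosen with earlier results of these data known. The text names the 6 members, the 3 most similar genes for each, and in each list up to 3 called genes with the lowest adjusted p in bladder minus sinus, or the 1 with the lowest p. Alternatives covered scaling, floor, filter, probe set choice, weights, blocks, covariates and arrays left out.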

Additional observations from a re-analysis of the deposited data

Results flagged for a closer look

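Tbx5 on probe set 1425695_at stood apart on 1 urogenital sinus array. Replicate 1 had a log2 intensity of 11.64, against 9.30 on the nearest of the other sinus arrays, a gap of 0.846 of the range of the group. This is above Dixon's 95% limit for 4 arrays, which chance passes in about 1 in 20 groups, and 12 probe sets of the members were looked at in this way. The same array had the highest signal of the embryonic globin Hbb-bh1 (log2 15.04), and whether the 2 are related was not tested.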

How the results depend on the processing

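Of 1561 values of single genes under the alternatives, 1331 kept direction and side of the threshold, 166 no longer passed it, 47 newly passed it and 17 changed sign, and 143 of 178 counts of members called stayed within 1.5 times. Bladder against sinus, with 2 members called, gave 1 with quantile normalization, centring on array medians, a floor at the 40th percentile, no filter, the mean over probe sets, every probe set on its own, or only the arrays of the 2 groups; 4 with array weights; and 0 to 2 with an array left out. Tbx20 kept its call in 18 of 25 settings, between 1.79 (mean over probe sets, limma adjusted p = 0.129) and 3.53, and Tbx2 in 9. Urethra against sinus, with 0 called, gave 1 with no floor, 3 with array weights, and 0 to 1 with an array left out; Tbx20 passed without sinus replicate 1 (limma adjusted p = 0.0483) and without urethra replicate 2 (0.0208). Bladder against urethra, with 2 called, gave 0 with title style as a block, 1 when the sinus and urethra arrays with number 1 were both dropped (added after the data were seen), and 1 to 3 with an array left out. Against the reference the bladder (3 called) gave 5 with array weights or with the reference arrays as 3 samples and 3 to 4 with an array left out, the urethra (2 called) gave 1 with the mean over probe sets and 2 to 3 with an array left out, and the sinus (2 called) gave 4 with array weights and 2 to 3 with an array left out.

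17 values turned sign. For urethra minus sinus they were Tbx5 with array weights (0.27), title style as a block (0.51), without urethra replicate 1 (0.69) and with both number 1 arrays dropped (1.33), and Tbx20 with title style as a block (0.55). For bladder minus urethra they were Tbx3 with median centring (0.40), array weights (0.063), without bladder replicate 8 (0.37), without urethra replicate 2 (0.069) and without urethra replicate 6 (0.034), Tbx4 with median centring (0.033) and title style (0.33), and Tbx5 without bladder replicate 8 (0.47) and without urethra replicate 2 (0.48). Tbx20 in urethra minus reference turned to 1.65 with title style. With single arrays left out, Tbx5 ranged over -2.11 to 0.69 in urethra minus sinus and -2.32 to 0.48 in bladder minus urethra, and Tbx3 over -0.30 to 0.37 in bladder minus urethra. The cause was not tested.

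Scaling moved the split of all called genes. Bladder against sinus had 122 higher and 260 lower, 95 and 98 after quantile normalization, and 137 and 34 after median centring, with median differences of -0.19, 0.04 and 0.36. Bladder against urethra had 257 higher and 394 lower, 218 and 171 after quantile normalization, and 170 and 56 after median centring. Array weights called 2668 genes in bladder against sinus (382 otherwise), 664 in urethra against sinus (2) and 1873 in bladder against urethra (651), and title style as a block called 467, 14 and 55.

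Title numbers recur in several regions. Over 7 pairs of arrays that share a number, deviations from the region means correlated at -0.168 to 0.362, and over 26 other pairs at -0.513 to 0.413, so the numbers were not taken to pair samples. With number as a fixed replicate block the members called were 0 in bladder against sinus (132 genes in all), 0 in urethra against sinus and 1 in bladder against urethra (140 genes), and Tbx3 and Tbx5 in bladder minus urethra turned to 0.11 and 0.13. Under it Tbx20 in bladder minus sinus was 2.58 (limma adjusted p = 0.101) and Tbx18 in bladder minus urethra 4.49 (adjusted p = 0.123). As a random replicate block it gave 1 in urethra against sinus (58 genes) and 669 genes in bladder against sinus.

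Signals near the floor limit Tbx5, the dimmest probe sets of Tbx3 and Tbx20 and the urethra values of Tbx20 and Tbx18, and 3 to 4 arrays a group limit all tests.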
